A study of Homo sapiens with 10 samples.

Results

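The genes described here were 9 members of the tripartite motif (TRIM) family that are known for roles in defence against viruses, *TRIM5*, *TRIM14*, *TRIM21*, *TRIM22*, *TRIM25*, *TRIM26*, *TRIM34*, *TRIM38* and *TRIM56*, together with *PML*, which belongs to the same family. They were chosen by name, with earlier results of these data known, and these 10 genes were found in the count table of every library among 59386 listed genes. Of the 10 genes, 9 had enough counts to be tested and *TRIM34* had none.

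TRIM proteins share an N-terminal arrangement of a RING finger, B-box zinc fingers and a coiled coil, and most act as E3 ubiquitin ligases, enzymes that attach ubiquitin to a substrate. Several are produced at a higher level when cells receive interferon, the secreted signal of a virus-infected cell that acts through a complex of transcription factors including STAT2 and IRF9. Some bind viral proteins directly, as TRIM5 does with the capsid of retroviruses, and others modify the sensors and adaptors that detect viral nucleic acid, as TRIM25 does with RIG-I. PML builds the PML nuclear bodies, nuclear foci that also hold SP100, DAXX and ATRX and that are targeted by many DNA viruses.

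RNA was sequenced from VCaP cells, an established line of human prostate cancer cells, that had been treated for 72 h with siRNA. *SMARCA4*, the ATPase of the SWI/SNF chromatin remodelling complex, was targeted with siRNA A or siRNA B, and *SMARCA1*, the ATPase of ISWI-type remodelling complexes, with siRNA A or siRNA C, at 30 pmol and with a lipid transfection reagent. Each siRNA was given to 2 libraries, and 2 control libraries served for both knockdowns, 10 libraries in all. For other assays of these knockdowns the paper names a control siRNA, siNC. The sources used here do not state whether the sequenced control libraries received it, or at what dose. Loss of the target and treatment with a targeting siRNA therefore cannot be told apart in the comparisons with the control.

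Total counts lay between 23898545 and 34667965 per library. *SMARCA4* was at 13.3 to 25.2 CPM (a gene's count scaled to the library's total and by its TMM factor) in the 4 *SMARCA4* knockdown libraries against 242 and 268 CPM in the controls, and *SMARCA1* was at 1.75 to 3.40 CPM in the 4 *SMARCA1* knockdown libraries against 32.3 and 31.5 CPM. *SMARCA4* was at 228 to 249.7 CPM in *SMARCA1* knockdown, whereas *SMARCA1* was at 57.4 to 83.8 CPM in *SMARCA4* knockdown, above both controls. The 8 markers of luminal prostate cells (among them *KLK3* and *ERG*) were detected in every library, at a summed 4528 to 4626 CPM in the controls, 6250.4 to 7087 CPM in *SMARCA4* and 5175 to 6085 CPM in *SMARCA1* knockdown. Of these, 5 rose in *SMARCA4* knockdown (62.5%, beside 22.8% of all genes tested). In *SMARCA1* knockdown 2 rose and 3 fell (25% and 37.5%, beside 23.8% and 23% of all genes tested). *SMARCA4* siRNA A replicate 2 was the lowest of the 4 *SMARCA4* knockdown libraries for 7 of the 9 tested genes, those other than *TRIM14* and *TRIM25*.

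In GRCh38, the build of the count tables, 4 of the genes lie on the short arm of chromosome 11, *TRIM21* at chr11:4384897-4393702 on the minus strand and the neighbours *TRIM34* (chr11:5619764-5644398, plus strand), *TRIM5* (chr11:5663195-5938619, minus strand) and *TRIM22* (chr11:5689697-5737089, plus strand). *TRIM26* (chr6:30184455-30213427, minus strand) and *TRIM38* (chr6:25962802-25991231, plus strand) lie on chromosome 6. *TRIM14* is at chr9:98069275-98119222 and *TRIM25* at chr17:56836387-56914080, both on the minus strand. *TRIM56* is at chr7:101085481-101097967 and *PML* at chr15:73994673-74047827, both on the plus strand. Exons of other genes overlap those of 6 of the tested members, over 0.6% to 10.8% of the member's exon bases for each overlapping gene. The largest of these overlaps is that of *TRIM22* with *OR56B1*, an olfactory receptor gene with 0 counts in these libraries, on the same strand. *NANS* on the opposite strand of *TRIM14* held 14860 counts over all libraries against 118461 for *TRIM14*, and *DGKE* on the opposite strand of *TRIM25* held 14160.

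Stretches of 80 bases before or across the transcription start sites are shown because 5 of the 8 genes with a promoter sequence held a match to the core of the interferon-stimulated response element (ISRE), the site bound by STAT2 and IRF9 in a complex and by the IRF proteins. Promoter windows of 300 bases, 250 before and 50 after a start site, were taken from RefSeq (GRCh38.p14). They were found for *TRIM5*, *TRIM14*, *TRIM21*, *TRIM25*, *TRIM26*, *TRIM34*, *TRIM38* and *TRIM56*, with 2 windows for *TRIM34* and none for *TRIM22* or *PML*. The motif searched was GAAANNGAAA on both strands, and 3.57% of all 35116 promoter windows held it. A second motif, the interferon gamma-activated site TTCNNNGAA, which reads the same on both strands, was held by 7.66% of all windows and by 0 of the 9 windows of these genes. Capitals mark the ISRE core in the lines below, each written 5′ to 3′ on the strand of the gene. The last 18 bases shown for *TRIM5*, 19 for *TRIM14* and 30 for *TRIM21* lie after the start site.
TRIM5, chr11:5685057-5685136, minus strand: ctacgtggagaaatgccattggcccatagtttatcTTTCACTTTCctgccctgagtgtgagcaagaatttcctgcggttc
TRIM14, chr9:98119204-98119283, minus strand: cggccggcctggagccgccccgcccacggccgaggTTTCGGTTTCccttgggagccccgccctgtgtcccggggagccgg
TRIM21, chr11:4393673-4393752, minus strand: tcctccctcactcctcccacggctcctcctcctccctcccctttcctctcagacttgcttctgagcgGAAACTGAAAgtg
TRIM26, chr6:30213556-30213635, minus strand: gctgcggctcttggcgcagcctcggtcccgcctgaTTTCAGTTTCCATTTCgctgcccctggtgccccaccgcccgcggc
TRIM34, chr11:5624876-5624955, plus strand: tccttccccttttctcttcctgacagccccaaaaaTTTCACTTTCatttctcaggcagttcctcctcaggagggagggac
TRIM25, chr17:56914050-56914129, minus strand, with no match: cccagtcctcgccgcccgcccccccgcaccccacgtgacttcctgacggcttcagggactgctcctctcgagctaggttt
TRIM38, chr6:25962722-25962801, plus strand, with no match: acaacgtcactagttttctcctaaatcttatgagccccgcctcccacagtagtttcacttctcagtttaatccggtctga

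The matches of *TRIM5* and *TRIM14* lay close before the start site, at bases -27 to -18 and -26 to -17, and that of *TRIM34* at bases -90 to -81. *TRIM26* held overlapping matches between bases -194 and -179. In *TRIM21* the match lay after the start site, at bases 18 to 27, and a further match overlapped it up to base 33. The windows of *TRIM25*, *TRIM38* and *TRIM56* and the second window of *TRIM34* held none, which says only that these letters are not in these windows.

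The 9 tested genes were higher in both knockdowns than in the control, and in each of them every knockdown library was above both control libraries. The share of all genes with such a separation was not counted, so how unusual it is was not measured. In *SMARCA4* knockdown 9 of 9 rose, where 22.8% of all 16899 genes tested were called higher, and in *SMARCA1* knockdown 9 of 9 rose, where 23.8% were called higher (adjusted p below 0.05, edgeR's quasi-likelihood test across all genes). As the genes were chosen with earlier results of these data known, the shares describe them and do not test the list. The median log2 fold change of the 9 genes was 2.46 in *SMARCA4* knockdown and 2.14 in *SMARCA1* knockdown, beside 0.0022 and -0.0035 over all genes tested. *TRIM22* passed the filter on low counts only through the knockdown libraries, since neither control reached the filter's level of 0.352 CPM, so its being tested already required a difference. The other 8 genes reached that level in both controls, and 8 of 8 rose in each knockdown. These 10 genes took 0.0518% and 0.0540% of all counts in the controls, 0.176% to 0.257% in *SMARCA4* knockdown and 0.155% to 0.211% in *SMARCA1* knockdown. In such bulk libraries a larger share of responding cells and more RNA per cell cannot be told apart.

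**Figure D1:**
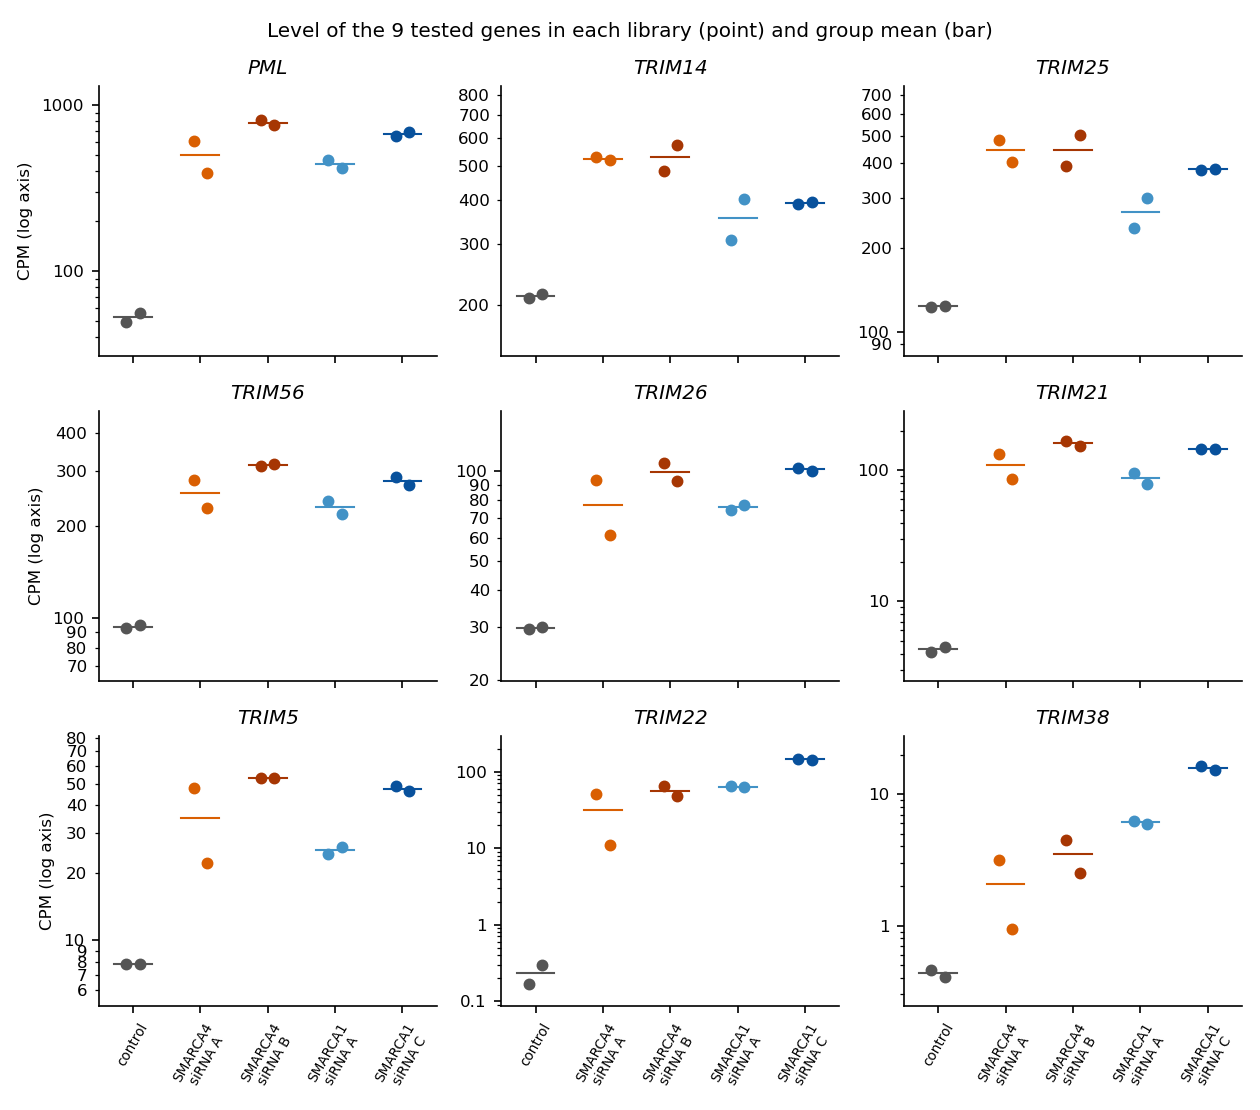
Level of the 9 tested genes in each of the 10 libraries, in CPM on a log axis with its own range for each gene, for the control, *SMARCA4* siRNA A and B and *SMARCA1* siRNA A and C. Points are libraries and bars the mean of the 2 libraries of a group; every knockdown library lies above both controls, and *SMARCA4* siRNA A replicate 2 is the lowest knockdown library for *TRIM22* (11.1 CPM) and *TRIM38* (0.943 CPM).

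*PML*, the scaffold of the nuclear bodies, was at 49.4 and 56.0 CPM in the controls. It was at 613 and 391 CPM with *SMARCA4* siRNA A, 812 and 761 CPM with *SMARCA4* siRNA B, 468 and 418 CPM with *SMARCA1* siRNA A, and 651 and 691 CPM with *SMARCA1* siRNA C. The 8 knockdown libraries were thus well apart from the controls, while the libraries of the 2 knockdowns overlapped. The log2 fold change was 3.58 (SE 0.19, edgeR adjusted p = 2.27e-06) in *SMARCA4* knockdown and 3.37 (SE 0.19, adjusted p = 3.02e-06) in *SMARCA1* knockdown, or 11.9-fold and 10.3-fold. Over 19 alternative settings in each knockdown, which include each siRNA alone, the value ranged from 3.25 to 3.90 in *SMARCA4* knockdown and from 3.07 to 3.67 in *SMARCA1* knockdown.

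Among the genes that act on retroviruses, *TRIM5*, which recognises incoming capsids, was at 7.82 and 7.84 CPM in the controls. It was at 47.9 and 22.2 CPM with *SMARCA4* siRNA A, 52.9 and 52.8 CPM with *SMARCA4* siRNA B, 24.2 and 26.2 CPM with *SMARCA1* siRNA A, and 48.6 and 46.3 CPM with *SMARCA1* siRNA C. Knockdown libraries near 25 CPM were thus found with both targets, the second library of *SMARCA4* siRNA A and both libraries of *SMARCA1* siRNA A, and none overlapped the controls. *TRIM5* rose by a log2 fold change of 2.46 (SE 0.27, edgeR adjusted p = 8.57e-05) in *SMARCA4* knockdown and 2.14 (SE 0.27, adjusted p = 0.00022) in *SMARCA1* knockdown. The ISRE core shown for *TRIM5* lies in the window of the RefSeq start site, inside the longer gene of the count table.

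*TRIM22*, the neighbour of *TRIM5* and an interferon-inducible inhibitor of HIV transcription, was close to absent in the controls, with 4 and 8 counts (0.167 and 0.297 CPM). It was at 51.4 and 11.1 CPM with *SMARCA4* siRNA A, 65.1 and 47.9 CPM with *SMARCA4* siRNA B, 64.6 and 63.1 CPM with *SMARCA1* siRNA A, and 148 and 141 CPM with *SMARCA1* siRNA C. Both libraries of *SMARCA1* siRNA C were above every other library, and *SMARCA4* siRNA A replicate 2 was below every other knockdown library. The fitted log2 fold changes, the largest of the 9 genes, were 7.45 (SE 0.80, edgeR adjusted p = 7.7e-05) in *SMARCA4* knockdown and 8.64 (SE 0.80, adjusted p = 5.57e-05) in *SMARCA1* knockdown. With so few control counts these depend on the prior count of the fit. From the 12 control counts pooled, the mean CPM was 186-fold the control in *SMARCA4* knockdown (95% exact Poisson interval of the control count, 106 to 360-fold) and 442-fold in *SMARCA1* knockdown (253 to 854-fold), intervals that cover counting error only.

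*TRIM34*, which lies between *TRIM6* and *TRIM5* and restricts some retroviruses together with TRIM5, had 0 counts in 10 of 10 libraries, where a count of 0 allows up to 3 counts, or 0.0865 to 0.126 CPM. Of its 2672 exon bases, 2233 (83.6%) are shared on the same strand with the read-through gene *TRIM6-TRIM34*, which also had 0 counts, and reads from shared exons could have been left unassigned. The other 439 bases gave 0 counts as well. *TRIM34* was therefore not compared, although its first promoter window held the same ISRE core letters as that of *TRIM5*.

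*TRIM21*, a receptor in the cytosol for the Fc part of antibodies, was at 4.14 and 4.50 CPM in the controls. It was at 134 and 86.1 CPM with *SMARCA4* siRNA A, 168 and 154 CPM with *SMARCA4* siRNA B, 95.6 and 78.8 CPM with *SMARCA1* siRNA A, and 146 and 145 CPM with *SMARCA1* siRNA C. The lowest knockdown library, at 78.8 CPM, was far above the higher control. The log2 fold change was 4.94 (SE 0.22, edgeR adjusted p = 6.27e-07) in *SMARCA4* knockdown and 4.70 (SE 0.22, adjusted p = 1.02e-06) in *SMARCA1* knockdown, or 30.8-fold and 26.1-fold. These were the lowest adjusted p-values of the 9 genes in each knockdown.

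Of the genes that act on the detection of viral nucleic acid, *TRIM25*, *TRIM14*, *TRIM56* and *TRIM26* had log2 fold changes between 0.81 and 1.86, and *TRIM38* between 2.62 and 4.49. *TRIM25*, the ligase for RIG-I, was at 123 and 124 CPM in the controls. It was at 486 and 404 CPM with *SMARCA4* siRNA A, 391 and 503 CPM with *SMARCA4* siRNA B, 236 and 299 CPM with *SMARCA1* siRNA A, and 379 and 382 CPM with *SMARCA1* siRNA C. The 4 libraries of *SMARCA4* knockdown were all above the 4 of *SMARCA1* knockdown, which in turn were above the controls. *TRIM25* rose by a log2 fold change of 1.86 (SE 0.15, edgeR adjusted p = 1.67e-05) in *SMARCA4* knockdown and 1.37 (SE 0.15, adjusted p = 9.97e-05) in *SMARCA1* knockdown.

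*TRIM14*, an adaptor of the MAVS signalling complex on mitochondria, was at 210.1 and 215 CPM in the controls. It was at 529.6 and 521 CPM with *SMARCA4* siRNA A, 486 and 576 CPM with *SMARCA4* siRNA B, 307 and 404 CPM with *SMARCA1* siRNA A, and 389 and 395 CPM with *SMARCA1* siRNA C. Here too the *SMARCA4* knockdown libraries did not overlap those of *SMARCA1* knockdown. The log2 fold change of *TRIM14* was 1.31 (SE 0.13, edgeR adjusted p = 4.45e-05) in *SMARCA4* knockdown and 0.81 (SE 0.13, adjusted p = 0.000672) in *SMARCA1* knockdown, the smallest of the 9 genes in each.

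*TRIM38*, an interferon-inducible regulator of Toll-like receptor and cGAS-STING signalling, was scarce, with 11 counts in each control (0.460 and 0.409 CPM). It was at 3.18 and 0.943 CPM with *SMARCA4* siRNA A, 4.51 and 2.49 CPM with *SMARCA4* siRNA B, 6.29 and 5.93 CPM with *SMARCA1* siRNA A, and 16.4 and 15.3 CPM with *SMARCA1* siRNA C. Every library of *SMARCA1* knockdown was above every library of *SMARCA4* knockdown, the opposite order from that of *TRIM25* and *TRIM14*. The log2 fold change was 2.62 (SE 0.53, edgeR adjusted p = 0.00292) in *SMARCA4* knockdown and 4.49 (SE 0.51, adjusted p = 0.000137) in *SMARCA1* knockdown. From the 22 control counts pooled, the mean CPM was 6.43-fold the control (95% exact Poisson interval 4.25 to 10.3-fold) in *SMARCA4* knockdown and 25.4-fold (16.8 to 40.5-fold) in *SMARCA1* knockdown.

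*TRIM56*, a ligase that acts on the cGAS-STING pathway, was at 93.0 and 95.1 CPM in the controls and at 219 to 316 CPM in the 8 knockdown libraries. It rose by a log2 fold change of 1.59 (SE 0.11, edgeR adjusted p = 9.02e-06) in *SMARCA4* knockdown and 1.43 (SE 0.11, adjusted p = 2.24e-05) in *SMARCA1* knockdown. *TRIM26*, a regulator of interferon-beta induction encoded within the major histocompatibility complex, was at 29.6 and 30.1 CPM in the controls and at 61.2 to 107 CPM in the knockdown libraries. It rose by a log2 fold change of 1.56 in both, with an SE of 0.16 in each and edgeR adjusted p-values of 6.41e-05 in *SMARCA4* and 9.36e-05 in *SMARCA1* knockdown. For both genes the ranges of the 2 knockdowns overlapped.

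Each siRNA alone gave the same calls. Against the control, 9 of 9 genes were called higher with *SMARCA4* siRNA A (17.4% of all genes tested), with *SMARCA4* siRNA B (23% of all genes), with *SMARCA1* siRNA A (18.5% of all genes) and with *SMARCA1* siRNA C (23.8% of all genes). The median log2 fold change of the 9 genes was 2.16 and 2.75 with *SMARCA4* siRNA A and B, and 1.68 and 2.60 with *SMARCA1* siRNA A and C. All 4 comparisons share the same control libraries, and the 9 genes include *TRIM22*, which was tested only through the knockdown libraries.

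**Figure D2:**
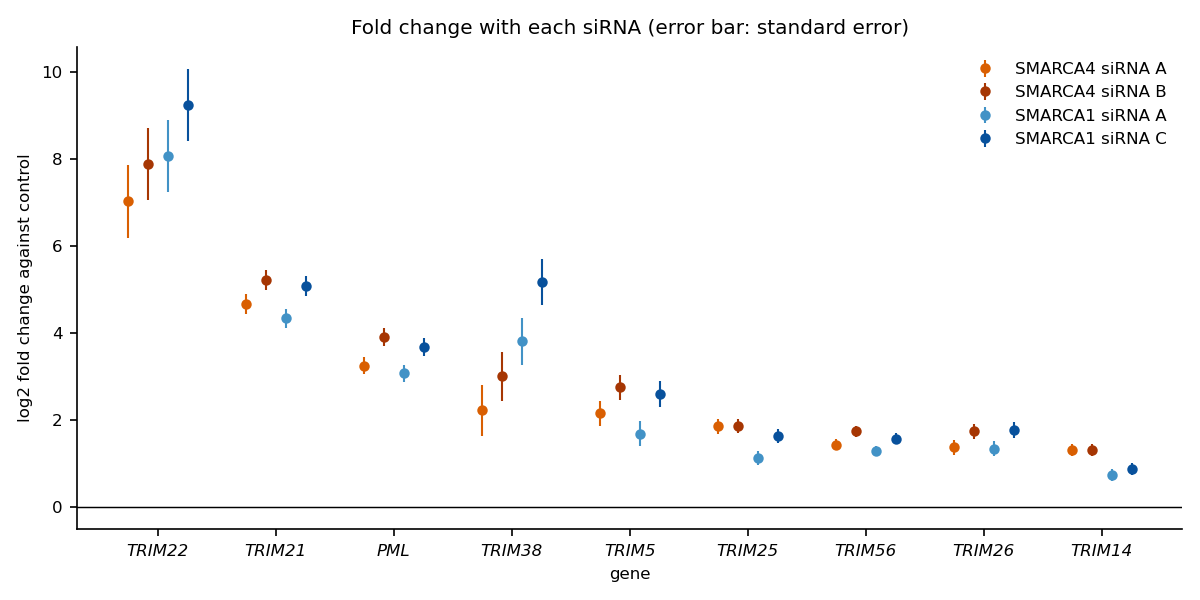
Log2 fold change of the 9 tested genes against the control with each siRNA, ordered by the value in *SMARCA4* knockdown, with standard errors from edgeR as bars. All values are above 0, from 0.74 for *TRIM14* with *SMARCA1* siRNA A to 9.23 for *TRIM22* with *SMARCA1* siRNA C.

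The fitted value was higher with siRNA B than with siRNA A of *SMARCA4*, and with siRNA C than with siRNA A of *SMARCA1*, for 9 of 9 genes. The median log2 fold change of the 9 genes was 0.55 and 0.60 in these comparisons, beside -0.010 and 0.020 over all genes tested. The 9 genes were read from the same libraries, so their directions are not independent. Between the *SMARCA4* siRNAs the fitted value was near 0 for *TRIM14* (0.015) and *TRIM25* (0.0075), and these changed sign with a library left out, as did *TRIM14* (0.14) between the *SMARCA1* siRNAs. For *SMARCA4* siRNA B against siRNA A, 0 of the 9 genes were called by edgeR (3.17% of all genes were called higher and 3.04% lower), 4 had an unadjusted p below 0.05 (24.5% of all genes), and DESeq2 called 1, *PML* (10.2% of the genes to which it gave an adjusted p). *PML* had the lowest adjusted p, with a log2 fold change of 0.65 (SE 0.18, edgeR adjusted p = 0.0626), which was 0.37 without *SMARCA4* siRNA A replicate 2 and 1.01 without replicate 1. The other values also moved with replicate 2. Without it, the value went from 0.86 to 0.14 for *TRIM22*, from 0.79 to 0.15 for *TRIM38* and from 0.59 to 0.15 for *TRIM5*, and 0 of the 9 genes were called (0.272% of all genes). The count depended on single libraries, with 6 genes called higher without *SMARCA4* siRNA A replicate 1 (4.46% of all genes called higher) and 2 when either library of *SMARCA1* siRNA A was left out (8.13% of all genes called higher without replicate 1 and 7.74% without replicate 2). For *SMARCA1* siRNA C against siRNA A, 0 were called by edgeR (0.0118% of all genes were called higher and 0% lower), 8 had an unadjusted p below 0.05 (17.1% of all genes), and DESeq2 called 4, *TRIM5*, *TRIM21*, *TRIM38* and *PML* (3.3% of the genes to which it gave an adjusted p). When either library of *SMARCA4* siRNA A was left out edgeR called 5 of the 9 genes higher (1.4% of all genes without replicate 1 and 1.41% without replicate 2), and without *SMARCA1* siRNA A replicate 2 it called 1 (7.07% of all genes). The largest of these differences was that of *TRIM38*, with a log2 fold change of 1.37 (SE 0.38, edgeR adjusted p = 0.149).

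The knockdowns were then compared with each other, in fold changes that do not involve the control libraries. Each knockdown is the average of 2 siRNA groups, and the error comes from libraries given the same siRNA. Differences between the siRNAs of a target are not in these p-values, so target and siRNA cannot be told apart here either. For *SMARCA1* siRNA C over siRNA A, the log2 fold change was 0.14 for *TRIM14*, 0.51 for *TRIM25*, 1.18 for *TRIM22* and 1.37 for *TRIM38*. *TRIM14* had the higher level in *SMARCA4* knockdown, with a log2 fold change of 0.50 over *SMARCA1* knockdown (SE 0.099, edgeR adjusted p = 0.00386) as had *TRIM25*, with 0.48 (SE 0.11, adjusted p = 0.00822), whereas *TRIM38* was lower, at -1.88 (SE 0.29, adjusted p = 0.00108) as was *TRIM22*, at -1.19 (SE 0.35, adjusted p = 0.023). Thus 2 of 9 genes were called higher, where 16.3% of all genes tested were, and 2 of 9 were called lower, where 19.1% were, shares close to those of all genes. The calls of *TRIM14*, *TRIM25* and *TRIM38* held in each of 16 alternative settings, and each of these genes had libraries of the 2 knockdowns that did not overlap. The share of all genes without such overlap was not counted. The call of *TRIM22* was lost with DESeq2 (adjusted p = 0.0534), without *SMARCA1* siRNA C replicate 1 (edgeR adjusted p = 0.0584) or replicate 2 (0.0526), and without *SMARCA4* siRNA B replicate 2 (0.0785). The size of the *TRIM22* difference depended on *SMARCA4* siRNA A, at -0.82 without its replicate 2 and -1.92 without its replicate 1. The *SMARCA1* siRNAs also differed in *TRIM22*, with 64.6 and 63.1 CPM for siRNA A and 148 and 141 CPM for siRNA C. *SMARCA4* siRNA B, at 65.1 and 47.9 CPM, was near *SMARCA1* siRNA A.

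The other 5 genes were not called between the knockdowns. Their log2 fold changes, *SMARCA4* over *SMARCA1* knockdown, were 0.32 (SE 0.19) for *TRIM5*, 0.24 (SE 0.13) for *TRIM21*, 0.20 (SE 0.13) for *PML*, 0.16 (SE 0.085) for *TRIM56* and 0.0015 (SE 0.12) for *TRIM26*. Their edgeR adjusted p-values lay between 0.163 and 0.995. Without *SMARCA4* siRNA A replicate 2, 7 of the 9 genes were called, with *TRIM5* (0.55), *TRIM21* (0.39) and *PML* (0.36) added as higher in *SMARCA4* knockdown, where 12.7% of all genes were called higher and 13.3% lower. Without *SMARCA4* siRNA A replicate 1 instead, the value for *TRIM5* was 0.0010.

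**Figure D3:**
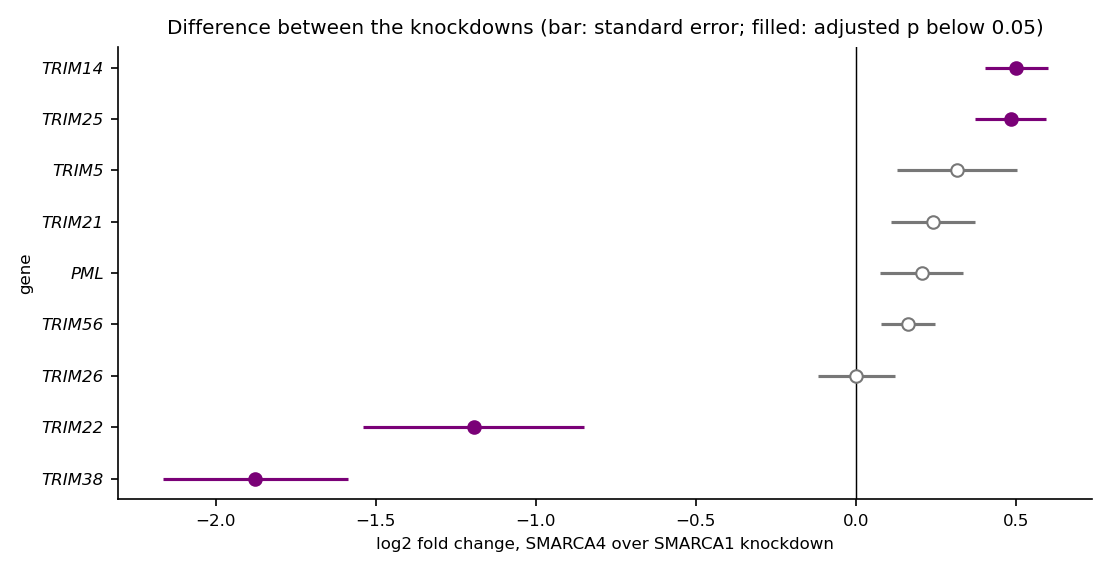
Log2 fold change of *SMARCA4* over *SMARCA1* knockdown for the 9 tested genes, with standard errors as bars and filled points for an edgeR adjusted p below 0.05. *TRIM14* (0.50) and *TRIM25* (0.48) lie to the right of 0 and *TRIM22* (-1.19) and *TRIM38* (-1.88) to the left, while *TRIM26* lies at 0.0015.

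The 2 libraries of *SMARCA4* siRNA A differed more in these genes, on the median, than those of the other groups. The ratio of replicate 2 to replicate 1 ran from 0.216 for *TRIM22* over 0.297 for *TRIM38*, 0.463 for *TRIM5*, 0.637 for *PML*, 0.641 for *TRIM21* and 0.654 for *TRIM26* to 0.811 for *TRIM56*, 0.830 for *TRIM25* and 0.984 for *TRIM14*. *TRIM14* and *TRIM25*, the genes with the higher level in *SMARCA4* knockdown, were thus among the 3 genes least different between these libraries. The median ratio of the 9 genes was 0.641 in this group, 0.937 for *SMARCA4* siRNA B, 0.977 for *SMARCA1* siRNA A, 0.979 for *SMARCA1* siRNA C and 1.02 for the control. The single ratios ran from 0.552 to 1.29 for *SMARCA4* siRNA B and from 0.825 to 1.31 for *SMARCA1* siRNA A. Over all genes, the libraries of *SMARCA1* siRNA A differed more (chi-square per gene 60.6) than those of *SMARCA4* siRNA A (43.0). In the 2 libraries of *SMARCA4* siRNA A, the 8 genes used as a reference for interferon signalling had ratios from 0.311 (*IFNL1*) to 0.795 (*IRF9*), with a median of 0.523. *SMARCA4* itself was at 25.2 and 23.2 CPM in these libraries. Whether the interferon genes have a part in the difference between the libraries was not tested.

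**Figure D4:**
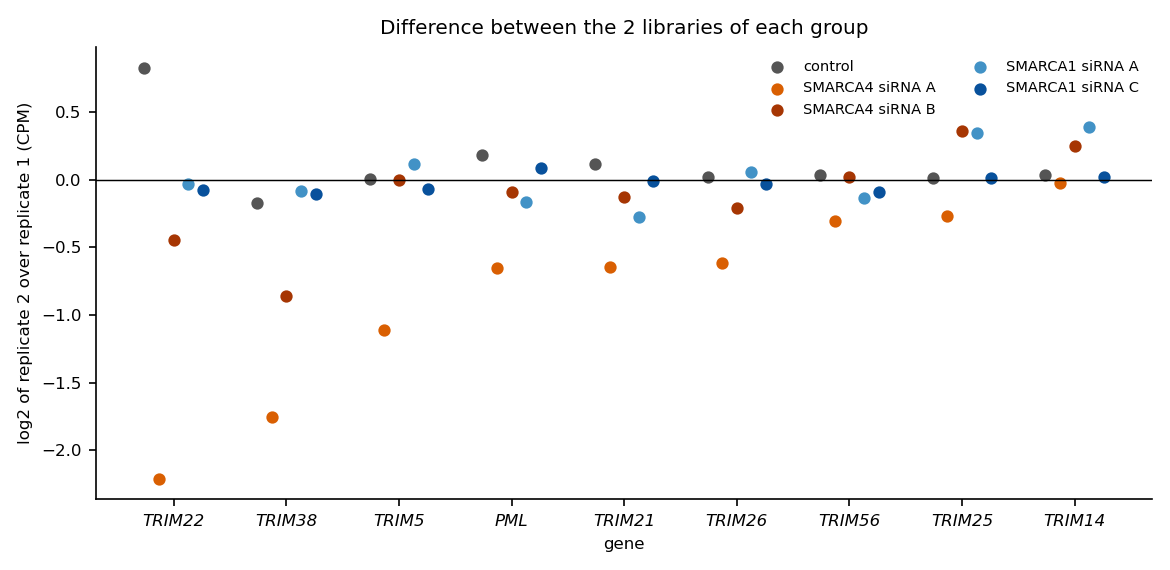
Log2 of the ratio of replicate 2 to replicate 1 in CPM for the 9 tested genes in each of the 5 groups, 1 point for each gene and group, ordered by the ratio in *SMARCA4* siRNA A. In that group the values run from -2.21 for *TRIM22* to -0.023 for *TRIM14*; the value of *TRIM22* in the control rests on 4 and 8 counts.

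Per length of transcript, the order of the genes differed between the controls and the knockdowns. On the TPM scale (counts divided by gene length and then scaled to the library's total), *TRIM14* was the highest in the controls, at 170.0 ± 3.65 TPM (SD, n = 2). It was followed by *TRIM25* (43.5 ± 0.43 TPM), *TRIM56* (37.0 ± 0.75 TPM), *TRIM26* (29.8 ± 0.48 TPM), *PML* (18.2 ± 1.69 TPM), *TRIM21* (9.78 ± 0.61 TPM) and *TRIM5* (6.41 ± 0.040 TPM). *TRIM38* (0.202 ± 0.016 TPM) and *TRIM22* (0.171 ± 0.069 TPM) came last of the genes with counts, and only this pair of neighbours had overlapping libraries. In *SMARCA4* knockdown *TRIM14* was again first, at 429 ± 41.1 TPM (SD, n = 4), and *TRIM21* came second at 311 ± 80.7 TPM, before *PML* (226 ± 65.8 TPM) and *TRIM25* (160 ± 22.8 TPM), with overlaps between *TRIM21* and *PML* and between *PML* and *TRIM25*. In *SMARCA1* knockdown *TRIM14* (283 ± 41.4 TPM), *TRIM21* (248 ± 67.5 TPM) and *PML* (181 ± 39.5 TPM) were the first 3, with overlaps between neighbours. *TRIM22* was at 32.6 ± 16.8 TPM in *SMARCA4* knockdown, overlapping *TRIM5* at 36.5 ± 12.2 TPM, and at 72.1 ± 30.9 TPM in *SMARCA1* knockdown, above *TRIM5* at 28.0 ± 9.41 TPM in each library.

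The genes whose log2 CPM (with a constant added to the CPM before the log) was most like that of *PML* over the 10 libraries were *FBXO6*, *PARP12* and *PARP9*, with Pearson's r of 0.998, 0.998 and 0.997. For *TRIM22* they were *CSF1* (0.997), *GBP3* (0.996) and *GBP4* (0.995), and for *TRIM25* the pseudogene *RN7SL834P* (0.985), *ETV6* (0.984) and *DTX3L* (0.984). *RN7SL834P* was scarce, at 0 CPM in both controls and 0.542 to 2.42 CPM in the knockdown libraries, and *GBP4* was at 0 and 0.111 CPM in the controls. *PARP9* and *DTX3L* encode partners in a complex that modifies histones, and the GBP genes encode interferon-inducible GTPases. These values describe the same 10 libraries, of which the 2 controls lie far from the other 8, so they carry no test.

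The rest of the TRIM family had median changes near 0. Of 67 other TRIM family genes listed, 37 were tested and 16 had 0 counts in every library. In *SMARCA4* knockdown 11 of the 37 rose, 3 fell and 23 were not called, with a median log2 fold change of 0.15. In *SMARCA1* knockdown 10 rose, 7 fell and 20 were not called, with a median of 0.14. The share that rose was 29.7% in *SMARCA4* and 27.0% in *SMARCA1* knockdown, beside 22.8% and 23.8% of all genes.

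**Figure D5:**
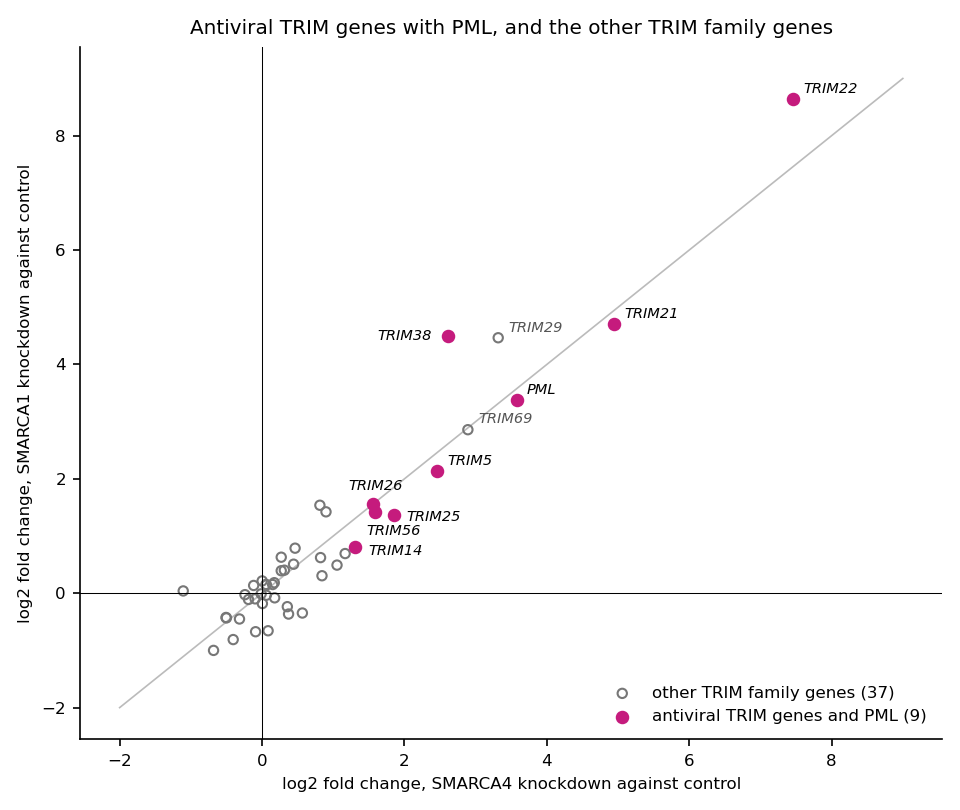
Log2 fold change against the control in *SMARCA4* knockdown (horizontal axis) and *SMARCA1* knockdown (vertical axis) for the 9 tested genes (filled) and 37 other TRIM family genes (open), with the line of equal values in grey. Both axes use the same 2 control libraries. The filled points lie between 0.81 and 8.64 on the vertical axis. Of the open points, *TRIM29* (4.47) and *TRIM69* (2.86) lie highest on it, and *TRIM29* was below the level of the filter in both controls.

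*TRIM69*, an interferon-inducible inhibitor of vesicular stomatitis virus that was not among the chosen genes, rose in both knockdowns. It was at 2.68 and 2.86 CPM in the controls, 12.4 to 30.6 CPM in *SMARCA4* and 15.4 to 27.9 CPM in *SMARCA1* knockdown, with log2 fold changes of 2.89 (SE 0.20, edgeR adjusted p = 8.38e-06) and 2.86 (SE 0.20, adjusted p = 1.09e-05). The other large rises that were called with each siRNA were those of *TRIM62* (1.05), *TRIM2* (0.90) and *TRIM24* (0.84) in *SMARCA4* knockdown, and of *TRIM29* (4.47, SE 0.90), *TRIM2* (1.42) and *TRIM35* (0.79) in *SMARCA1* knockdown. *TRIM29* was at 0.167 and 0.297 CPM in the controls, below the level of the filter, so it was tested only through the knockdown libraries. It was at 1.62 and 5.10 CPM with *SMARCA1* siRNA A and at 8.26 and 8.30 CPM with *SMARCA1* siRNA C. *TRIM24* encodes a nuclear coregulator of transcription. The falls were led by *TRIM59* (-0.50), the one fall called with both siRNAs in *SMARCA4* knockdown, and by *TRIM7* (-1.0), *MID1* (-0.67), *MID2* (-0.66) and *TRIM65* (-0.45) in *SMARCA1* knockdown.

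Of 17 genes of PML nuclear bodies other than *PML*, 16 were tested. In *SMARCA4* knockdown 5 rose, 5 fell and 6 were not called (median log2 fold change -0.024), and in *SMARCA1* knockdown 7 rose, 4 fell and 5 were not called (median 0.19), so the list did not move one way. The shares that rose and fell were 31.2% and 31.2% in *SMARCA4* knockdown, beside 22.8% and 22.3% of all genes, and 43.8% and 25% in *SMARCA1* knockdown, beside 23.8% and 23%. The largest rises were those of the speckled protein genes. *SP100*, a resident of the bodies that restricts herpesviruses, went from 1.76 and 1.93 CPM in the controls to 75.4 to 242 CPM in *SMARCA4* and 144 to 279.6 CPM in *SMARCA1* knockdown, with log2 fold changes of 6.51 (SE 0.41, edgeR adjusted p = 4.53e-06) and 6.80 (SE 0.41, adjusted p = 4.44e-06). *SP110* rose by 5.66 and 5.11. *SP140L* had 0 and 2 counts in the controls, below the level of the filter in each, so it was tested only through the knockdown libraries. It is among the genes counted above as rising in each knockdown. Its mean CPM was 169-fold the control in *SMARCA4* knockdown (95% exact Poisson interval of the control count, 46.9 to 1398-fold) and 370-fold in *SMARCA1* knockdown (102 to 3053-fold).

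The falls in this list were smaller than those rises. In *SMARCA4* knockdown they were led by *BLM*, a DNA helicase (-0.79), and *USP7*, a deubiquitinase (-0.52). In *SMARCA1* knockdown they were led by the kinase gene *HIPK2* (-0.91), *ATRX*, a chromatin remodeller of the bodies (-0.85), and *BLM* (-0.51).

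The 27 genes of sensors, adaptors and enzymes that work with the TRIM proteins were all tested. In *SMARCA4* knockdown 12 rose, 5 fell and 10 were not called (median log2 fold change 0.21), and in *SMARCA1* knockdown 13 rose, 4 fell and 10 were not called (median 0.39). The shares that rose and fell were 44.4% and 18.5% in *SMARCA4* knockdown, beside 22.8% and 22.3% of all genes, and 48.1% and 14.8% in *SMARCA1* knockdown, beside 23.8% and 23%. The largest rises were shared. *ISG15*, a ubiquitin-like protein, was at 15.3 and 17.4 CPM in the controls, at 1583 to 5371 CPM in *SMARCA4* and at 2325 to 4921 CPM in *SMARCA1* knockdown, with log2 fold changes of 7.66 (SE 0.36, edgeR adjusted p = 1.02e-06) and 7.85 (SE 0.37, adjusted p = 1.04e-06). *UBE2L6*, the conjugating enzyme of ISG15, rose by 6.18 and 6.45. *DDX58*, which encodes RIG-I, had 12 counts in the controls pooled, below the level of the filter in each, so it was tested only through the knockdown libraries. Its mean CPM was 70.7-fold the control in *SMARCA4* knockdown (95% exact Poisson interval of the control count, 40.5 to 137-fold) and 46.2-fold in *SMARCA1* knockdown (26.5 to 89.4-fold). *MAVS*, the adaptor downstream of RIG-I, fell by 0.65 in *SMARCA4* and by 0.82 in *SMARCA1* knockdown. *PPIA*, which encodes the capsid-binding cyclophilin A, fell by 0.88 and *UBE2V2* by 0.51 in *SMARCA4* knockdown, and *UBE2V1* fell by 0.73 and *TAB3* by 0.66 in *SMARCA1* knockdown.

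Genes of interferon signalling moved with the TRIM genes. Of the 8 reference genes (*STAT2*, *IRF9*, *IRF1*, *IRF7*, *IFNB1*, *IFNL1*, *MX1* and *IFIT1*), 8 rose in *SMARCA4* knockdown (median log2 fold change 6.60) and 8 in *SMARCA1* knockdown (median 6.55). Of all genes tested, 22.8% and 23.8% rose, and the reference genes too were chosen with earlier results of these data known. *IFNB1* (0 counts in both controls) and *IFNL1* (0 and 1) were under the level of the filter in the controls and were tested only through the knockdown libraries, while the other 6 reached it in both controls. Over those 6 genes the median was 4.03 in *SMARCA4* and 3.81 in *SMARCA1* knockdown, and 6 of 6 rose in each. Their part in the rise of the TRIM genes was not tested. Of 6 leukocyte markers, *CD2* and *MS4A1* were at 0 in every library, and *PTPRC* and *CD3E* were at 0 in the controls and at no more than 0.0309 CPM elsewhere. The other 2, *LYZ* and *CD14*, were tested, and *LYZ* rose and *CD14* fell in both knockdowns. The summed level of the list was 2.34 CPM in both controls, 2.35 to 16.0 CPM in *SMARCA4* and 9.10 to 23.7 CPM in *SMARCA1* knockdown, most of it *LYZ*, which was at 0.520 and 0.795 CPM in the controls and rose to 1.68 to 15.4 and 8.04 to 22.5 CPM. The summed level of 5 stromal markers was 6.61 and 13.8 CPM in the controls, 9.27 to 17.4 CPM in *SMARCA4* and 10.8 to 20.6 CPM in *SMARCA1* knockdown. In each knockdown 1 of these was called higher (20%, beside 22.8% and 23.8% of all genes), and 1 was called lower in *SMARCA1* knockdown (20%, beside 23%). The part of either list in the rise of the TRIM genes was not tested.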

How the data were processed

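RNA-seq of 10 VCaP libraries was analysed. Per the labels and the study's methods, the authors selected polyadenylated RNA, prepared strand-specific libraries, aligned paired-end reads to GRCh38 with HISAT2 2.1.0 and counted them per gene with featureCounts 1.5.2 on GENCODE annotations. The deposited values are raw counts without normalization. Whether counting used strand is not given in the sources used here. Of 810 genes that opposite-strand exons cover in full, 217 (26.8%) reached 10 counts over the libraries. No source says whether the 2 libraries of a group came from separate cultures, so p-values measure the spread between these libraries, which may be technical. Sampling noise was exceeded in every replicate pair (chi-square per gene 3.82 to 60.6).

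Groups came from the labels. Genes were filtered with filterByExpr of edgeR 4.0.16 in R 4.3.3 (minimum count 10, minimum total 15), leaving 16899. TMM normalization was used, and glmQLFit and glmQLFTest were run on 10 libraries as 5 groups. Both siRNA groups of a target, averaged, stood for its knockdown. Benjamini-Hochberg adjustment ran over all genes tested, with a threshold of 0.05 for a call. The fit was tested on simulated data. Standard errors are the absolute log2 fold change over the square root of F. A floor of 3 counts corresponds to 0.0865 to 0.126 CPM, and intervals and floors cover counting error only.

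The members and lists were chosen with earlier results of these data known. Beside the members, the genes named are *SMARCA4* and *SMARCA1*, the 4 largest rises and falls of the other TRIM family genes called in a knockdown and with each of its siRNAs, up to 3 of the largest called rises and falls of the nuclear body and partner lists, the 3 genes most like *PML*, *TRIM22* and *TRIM25*, and genes overlapping a member. The interferon reference genes counted are named, and some marker genes as examples. A few genes of these lists are not reported here and were left out of every count, median and sum. Alternatives were DESeq2 1.42.0, other normalizations and filters, a replicate block, fits without the other knockdown, each siRNA alone and each library left out.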

Additional observations from a re-analysis of the deposited data

Results flagged for a closer look

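Samples far from the others were looked for among the 4 libraries of each knockdown, for the 9 tested genes. With 18 such groups, about 1 would stand out by chance. *TRIM5* in *SMARCA4* siRNA A replicate 2, at 22.2 CPM, was far below the other 3 *SMARCA4* knockdown libraries, with a gap of 0.838 of the whole range. *TRIM14* in *SMARCA1* siRNA A replicate 1, at 307 CPM, was far below the other 3 *SMARCA1* knockdown libraries, with a gap of 0.847 of the range. The test of the difference between the knockdowns set apart *TRIM14* (log2 fold change 0.50 of *SMARCA4* over *SMARCA1* knockdown), *TRIM25* (0.48), *TRIM22* (-1.19) and *TRIM38* (-1.88).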

How the results depend on the processing

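The rise of the 9 genes in each knockdown kept its direction and its call in 171 of 171 alternative values for each. Between the knockdowns, 4 genes were called, 3 to 7 with a library left out (7 without *SMARCA4* siRNA A replicate 2). For *SMARCA4* siRNA B against A, 0 were called (6.2% of all genes tested). With no filter on low counts 5 were called (7.35% of all genes), and with the replicate block 1 (7.7% of all genes). With DESeq2 1 was called (10.2% of the genes to which it gave an adjusted p). The count also changed with the library left out, as given above. For *SMARCA1* siRNA C against A, 0 were called (0.0118% of all genes tested). With no filter 6 were called (3.99% of all genes), and with DESeq2 4 (3.3% of the genes to which it gave an adjusted p). Here too the count changed with the library left out. Some differences that were not called changed sign. For *TRIM26* between the knockdowns the value was -0.011 with upper quartile factors, -0.0094 with the replicate block, -0.0036 without *SMARCA1* siRNA A replicate 1, -0.0012 without *SMARCA1* siRNA C replicate 2, -0.15 without *SMARCA4* siRNA A replicate 1 and -0.033 without *SMARCA4* siRNA B replicate 1, and up to 0.15 with another library left out. For *SMARCA4* siRNA B against A, *TRIM14* was at -0.12 without *SMARCA4* siRNA B replicate 2 (up to 0.15 with another left out), and *TRIM25* at -0.0026 with the replicate block, -0.11 without *SMARCA4* siRNA A replicate 2 and -0.19 without *SMARCA4* siRNA B replicate 2 (up to 0.20). *TRIM14* was at -0.060 for *SMARCA1* siRNA C against A without *SMARCA1* siRNA A replicate 1 (up to 0.32). The cause was not tested. Of 10 pairs of groups, 3 had a correlation over 0.1 between the deviations of libraries with the same replicate number (range -0.22 to 0.50). They were *SMARCA4* siRNA A with *SMARCA4* siRNA B (0.50), *SMARCA4* siRNA B with *SMARCA1* siRNA A (0.40) and *SMARCA4* siRNA A with *SMARCA1* siRNA A (0.14). Whether these groups shared a batch was not tested. As the other pairs showed no such correlation, the numbers were not taken as pairing the libraries in the main fit. The counts of *TRIM22* and *TRIM38* in the controls limit the precision of their fold changes.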
